A study of Mus musculus with 16 samples.

Results

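The Hox cluster genes of the mouse were measured in neural tube organoids sorted by their FOXA2 level. The members are the 39 rows of the count table whose symbol is Hoxa, Hoxb, Hoxc or Hoxd followed by a number, of 35976 rows in all. They comprised 11 Hoxa, 10 Hoxb, 9 Hoxc and 9 Hoxd genes. All 16 libraries came from R1 mouse embryonic stem cells with a FOXA2-Venus reporter, grown as organoids, given retinoic acid for 18 hours and collected on day 4. The cells were sorted into FOXA2-negative, -low, -medium and -high gates, with 4 libraries each, and every gate therefore shares the line, the reporter and the retinoic acid. The line is a single embryonic stem cell line, and no library without retinoic acid was analysed here. The library titles carry a number from 1 to 4 that recurs in every gate, but no label says what it marks or states separate cultures. The p-values therefore describe library-to-library spread, part of which may be technical. RNA was profiled by BRB-seq, a bulk method that barcodes samples early and reads the 3′ end of transcripts.

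Hox genes encode homeodomain transcription factors that give cells along the body axis their position. They lie in 4 clusters, in which genes of low paralogue number (1 to 4) are switched on first and reach furthest forward, into the hindbrain, and genes of high number mark trunk and tail. Retinoic acid switches on the low-numbered genes through receptor binding sites in and around the clusters, and FOXA2 is a forkhead factor of the floor plate, notochord and endoderm. Levels are given as CPM, counts scaled to library size with TMM factors. CPM is not divided by transcript length. Each gene, and each sum or ratio of genes, is compared with itself across gates, and levels are not ranked between genes.

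The gates followed their labels. Foxa2 averaged 2.91 ± 1.68 CPM in the negative gate, 11.9 ± 3.02 in low, 52.0 ± 9.36 in medium and 113 ± 18.2 in high (SD, n = 4 each). This only checks the sort, because FOXA2 defined the gates. Library totals lay between 3268948 and 9961032 counts, so that 1 count was worth 0.102 to 0.304 CPM. Marker genes of other cell types differed between the gates. The summed CPM of 12 pluripotency genes was 66.0 to 102 in high libraries and 659 to 1140 in negative ones, with Nanog, Utf1 and Zfp42 among the 11 of 11 tested that were lower. The sum of 10 endoderm genes was 459 to 479 CPM in high libraries and 122 to 147 in negative ones, and 4 of 6 tested were higher, among them Sox17 and Ttr. Epcam and Cldn6, both among the 4 higher, made up much of this sum. Epcam averaged 162 CPM in high and 83.4 in negative, and Cldn6 149 in high and 32.3 in negative. Gata4 averaged 2.13 CPM in high and 3.97 in negative, and Hhex 3.57 in high and 3.06 in negative, neither of them called. The sum of 11 neural progenitor genes was 153 to 207 CPM in high libraries and 382 to 437 in negative ones, with 6 of 8 tested lower and Nkx6-1 higher, while Sox1, Sox2 and Olig2 were listed at 0 in every library. The zeros of Sox1, Sox2 and Olig2 are not read as absence, and their cause was not tested. Of 8 paraxial mesoderm genes 5 were tested, with Meox1 and Tbx1 higher and Tcf15 lower in high. Their sums overlapped, at 24.8 to 44.5 CPM in high and 27.8 to 42.7 in negative libraries, and Msgn1 was at 0. The sum of 6 neural crest genes was 4.66 to 13.9 CPM in high and 11.2 to 29.5 in negative libraries, and that of 6 notochord genes 10.3 to 18.9 CPM in high and 2.91 to 4.86 in negative ones, with Noto at 0. The part of these cell types in the Hox differences was not tested. In bulk RNA, fewer cells of a type and less RNA per cell cannot be told apart.

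Of the 39 members, 15 had enough counts to be tested, 14 had counts below the filter and 10 were listed at 0 in every library. Among the tested members were Hoxa2, Hoxa3, Hoxa7, Hoxb1, Hoxb2, Hoxb3, Hoxb5, Hoxb7, Hoxb8, Hoxc4, Hoxc5, Hoxc9, Hoxd1 and Hoxd3. All 15 together held 35618 counts. No member numbered 10 to 13, the genes of the posterior trunk, limb and tail, passed the filter. The clusters lie on chromosome 6 for Hoxa (minus strand), 11 for Hoxb (96194316 to 96368254), 15 for Hoxc (102921131 to 103036856) and 2 for Hoxd (74668225 to 74765142), the last 3 on the plus strand, in RefSeq coordinates of GRCm38.p6.

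The 10 rows at 0 were Hoxa4, Hoxa5, Hoxa6, Hoxa10, Hoxa11, Hoxb4, Hoxc11, Hoxc12, Hoxd4 and Hoxd12. Of these, 5 lie wholly inside the RefSeq span of another Hox gene on the same strand: Hoxa4, Hoxa5 and Hoxa6 within that of Hoxa3, Hoxb4 within that of Hoxb3, and Hoxd4 within that of Hoxd3. None of the other 29 rows does (0 of 29), and the remaining 5 zero rows do not either. In the GENCODE M21 annotation, 62.3% of the exon bases of Hoxd3 and 52.3% of those of Hoxd4 are shared with other genes on the same strand, while Hoxa4, Hoxa5, Hoxa6 and Hoxb4 share 0%. A zero in these 5 rows is therefore not read as absence, and the rows of Hoxa3, Hoxb3 and Hoxd3 are uncertain as to which of the nested genes gave the reads. The cause of the zeros was not tested.

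The 14 members below the filter held 407 counts in all, between 1 and 82 each over the 16 libraries. Hoxc13 had 82 counts, Hoxb13 73, Hoxd9 69, Hoxb6 53, Hoxc8 43, Hoxd8 31, Hoxb9 25 and Hoxc6 21. Hoxd13 had 5 counts, and Hoxa9, Hoxa13, Hoxc10, Hoxd10 and Hoxd11 had 1 each. Hoxd9 had 35 counts in the negative gate, 17 in low, 16 in medium and 1 in high, but 29 of the 35 came from a single library, negative 4. Hoxb6 had 24, 14, 10 and 5 counts in the negative, low, medium and high gates, and Hoxc6 had 8, 5, 8 and 0. These raw counts, like those of Hoxd9, do not allow for the unequal library totals. In the same order of gates, Hoxb6 averaged 0.846, 0.503, 0.417 and 0.261 CPM, and Hoxc6 0.346, 0.170, 0.322 and 0. At 3 counts or fewer a library cannot tell a gene from 0, and 3 counts correspond to 0.307 to 0.913 CPM here, counting error only. No test was made of these members.

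Promoter sequences are shown for Hoxa2 and Hoxd3, lower in high than in negative, and the paralogue 1 gene Hoxb1, higher in high than in low. Each is the 250 bases before the transcript start of the RefSeq promoter table on its own strand, written 5′ to 3′, with motif matches in capitals. They lie at chr6:52164832-52165081 (minus strand) for Hoxa2, chr2:74711743-74711992 (plus) for Hoxd3 and chr11:96365508-96365757 (plus) for Hoxb1, GRCm38.p6.
Hoxa2: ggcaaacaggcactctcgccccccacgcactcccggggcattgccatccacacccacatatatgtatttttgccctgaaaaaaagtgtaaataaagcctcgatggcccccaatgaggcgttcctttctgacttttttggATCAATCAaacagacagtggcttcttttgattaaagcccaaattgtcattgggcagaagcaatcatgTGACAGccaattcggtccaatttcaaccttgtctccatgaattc
Hoxd3: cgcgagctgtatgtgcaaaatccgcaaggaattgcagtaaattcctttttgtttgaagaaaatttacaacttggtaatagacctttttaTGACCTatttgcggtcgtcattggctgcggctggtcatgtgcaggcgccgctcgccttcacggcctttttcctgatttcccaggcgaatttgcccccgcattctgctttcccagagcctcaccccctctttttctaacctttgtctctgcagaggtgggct
Hoxb1: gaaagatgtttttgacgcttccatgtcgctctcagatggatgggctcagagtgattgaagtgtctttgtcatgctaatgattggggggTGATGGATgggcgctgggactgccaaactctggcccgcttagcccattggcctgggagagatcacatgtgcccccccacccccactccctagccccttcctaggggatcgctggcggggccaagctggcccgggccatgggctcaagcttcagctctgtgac
The capitals in Hoxa2 mark a PBX-HOX composite letter pattern 111 bases before the start and a MEIS pattern 44 bases before it. Those in Hoxd3 mark a retinoic acid receptor core pattern 161 bases before the start. Those in Hoxb1 mark a PBX-HOX pattern 162 bases before the start, in the stretch known as the autoregulatory element through which Hoxb1 protein keeps its own gene active in the mouse hindbrain.

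The patterns searched, on both strands, were TGATNNAT for PBX with a HOX protein, TGACAG for MEIS, AGGTCA for the retinoic acid receptor core and TGTTTAC for FOXA. Promoters of this length were at hand for 22 of the 39 members. Of these, 3 held the PBX-HOX pattern (13.6%, against 7.91% of all 27025 mouse promoters in the RefSeq table), namely Hoxa2, Hoxb8 and Hoxb1. The receptor core was in 6 (27.3%, against 13.8%), the MEIS pattern in 2 (9.09%, against 16.0%) and the FOXA pattern in 0 (against 3.09%). A match describes letters in a window and is not a binding site, and its absence says nothing about the factor. For Hoxb1, Hoxb8, Hoxc4 and Hoxd10 the transcript start of the promoter table is not the first base of the RefSeq span, and for Hoxb1 it lies 12 bases inside it. In GENCODE M21, Hoxd3 starts at 74711927 and Hoxd4 at 74711929. Both starts lie inside the window printed for Hoxd3, so it is not that of Hoxd3 alone.

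High against negative was the widest contrast in FOXA2. Hoxa2, Hoxb3, Hoxb7 and Hoxd3 were lower in the high gate, by 2.16- to 4.42-fold, while the levels of Hoxb1 overlapped between these gates. Thus 4 of the 15 tested members (26.7%) passed the test as lower and 0 as higher, where 8.55% of all 13891 tested genes were lower and 8.42% higher (edgeR quasi-likelihood test, Benjamini-Hochberg adjusted p under 0.05). At an unadjusted p under 0.05 there were 5, all lower, and DESeq2 called none higher. No share over all genes was taken at the unadjusted threshold, here or below, so those counts have no such comparison. The levels of 5 members did not overlap between the gates, all lower in high (11.1% of all tested genes were lower without overlap). The median log2 fold change was -0.25 over the 15 and 0.00 over all tested genes.

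**Figure D1:**
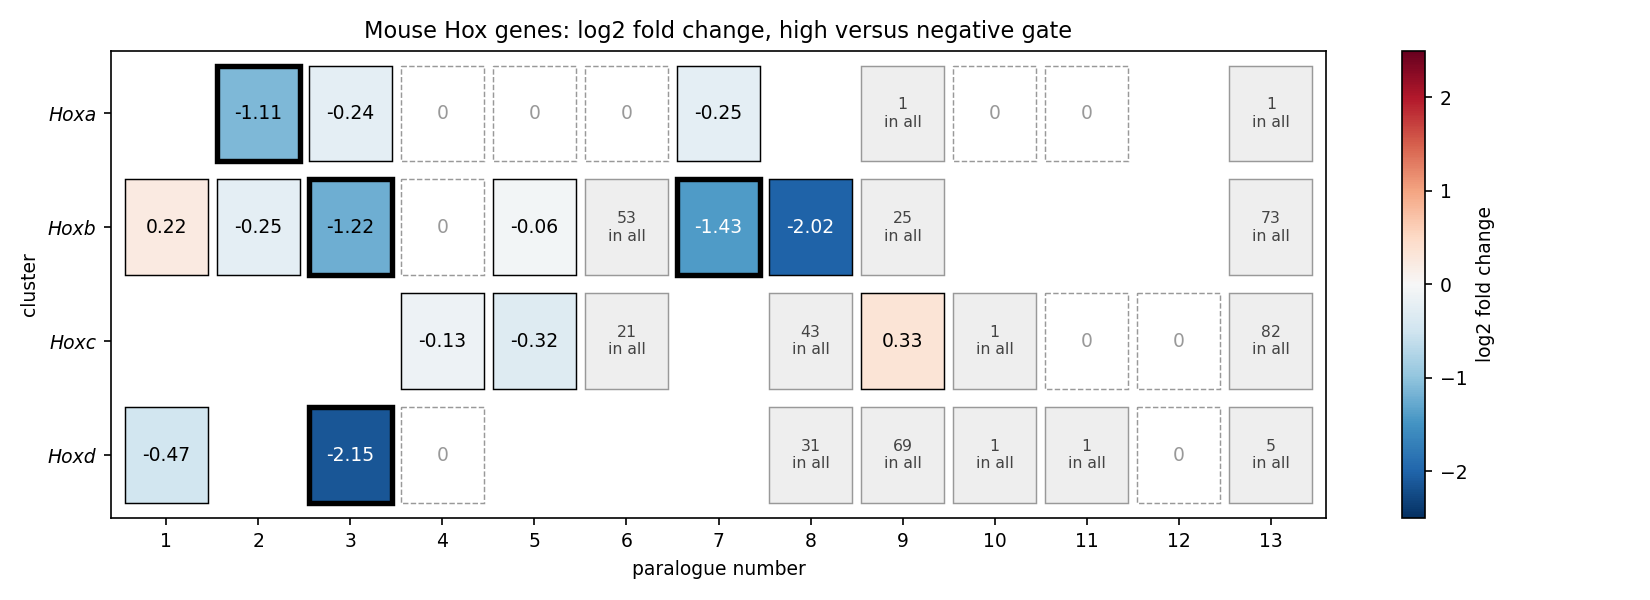
Mouse Hox genes by cluster (rows) and paralogue number (columns); the colour and printed value give the log2 fold change of the high over the negative gate, and a heavy frame marks an adjusted p under 0.05; 14 of the 15 tested members are drawn. Grey cells give the total counts of the 14 members below the filter, dashed cells are the 10 rows at 0, and the heavy frames fall on Hoxa2, Hoxb3, Hoxb7 and Hoxd3.

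Hoxa2, which sets the identity of the second branchial arch and patterns the anterior hindbrain, had 20, 19.2, 22.8 and 24.3 CPM in the high libraries, against 42.6, 46.4, 51.7 and 46.1 in the negative ones. Its low libraries held 54.6, 33.0, 44.5 and 40.8 CPM and its medium libraries 23.0, 28.7, 25.8 and 38.8. Every high library was below every low and negative one, and medium lay between, overlapping both low and high. High against negative the log2 fold change was -1.11 (SE 0.17, adjusted p = 9.42e-06) and high against low -1.01 (SE 0.17, adjusted p = 0.000106). Medium against negative it was -0.68 (SE 0.16, adjusted p = 0.00514), also without overlap.

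Hoxd3, a paralogue 3 gene known in the mouse for its role in the upper cervical vertebrae, had 4.66, 3.79, 5.86 and 3.96 CPM in the high libraries and 24.5, 9.55, 20.7 and 27.6 in the negative ones. The low libraries held 31.0, 14.3, 26.5 and 32.5 CPM and the medium ones 8.07, 11.9, 10.5 and 19.0. High was below every library of the 3 other gates, and negative 2 and low 2 were far below the other libraries of their gates. Its fitted log2 fold change was -2.15 high against negative (SE 0.35, adjusted p = 0.000183) and -2.48 high against low (SE 0.35, adjusted p = 8.22e-05). High against medium it was -1.41 with an adjusted p of 0.0822, and did not pass. These counts may include reads of Hoxd4, as said above.

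Hoxb3, another hindbrain gene of paralogue 3, had 7.32, 5.31, 4.16 and 7.00 CPM in the high libraries and 12.5, 13.5, 16.6 and 12.7 in the negative ones. The low libraries held 14.9, 17.5, 10.9 and 12.2 CPM and the medium ones 8.46, 10.9, 6.91 and 7.65. High lay wholly below negative and low, and medium wholly below negative. On the log2 scale the fitted change was -1.22 high against negative (SE 0.23, adjusted p = 0.000301) and -1.23 high against low (SE 0.23, adjusted p = 0.000622). Medium against negative it was -0.70 (SE 0.22, adjusted p = 0.0421), and that call was lost without any 1 of the negative libraries (adjusted p = 0.0535, 0.0743, 0.135 and 0.0573 without negative 1, 2, 3 and 4) or without medium 1, 3 or 4 (0.0833, 0.126 and 0.107).

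Hoxb7, a gene of the thoracic trunk, had 4.66, 2.28, 4.78 and 3.04 CPM in the high libraries and 10.7, 10.6, 7.46 and 12.2 in the negative ones. The low libraries held 8.48, 7.77, 5.93 and 9.14 CPM and the medium ones 4.13, 7.92, 5.88 and 6.51. High did not overlap negative or low but did overlap medium. The fitted log2 change was -1.43 high against negative (SE 0.28, adjusted p = 0.000374) and -1.03 high against low (SE 0.28, adjusted p = 0.0194). The high against low call was lost without low 4 (adjusted p = 0.0639), high 2 (0.0835) or high 4 (0.0578), and on counts thinned to the smallest library (0.186).

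**Figure D2:**
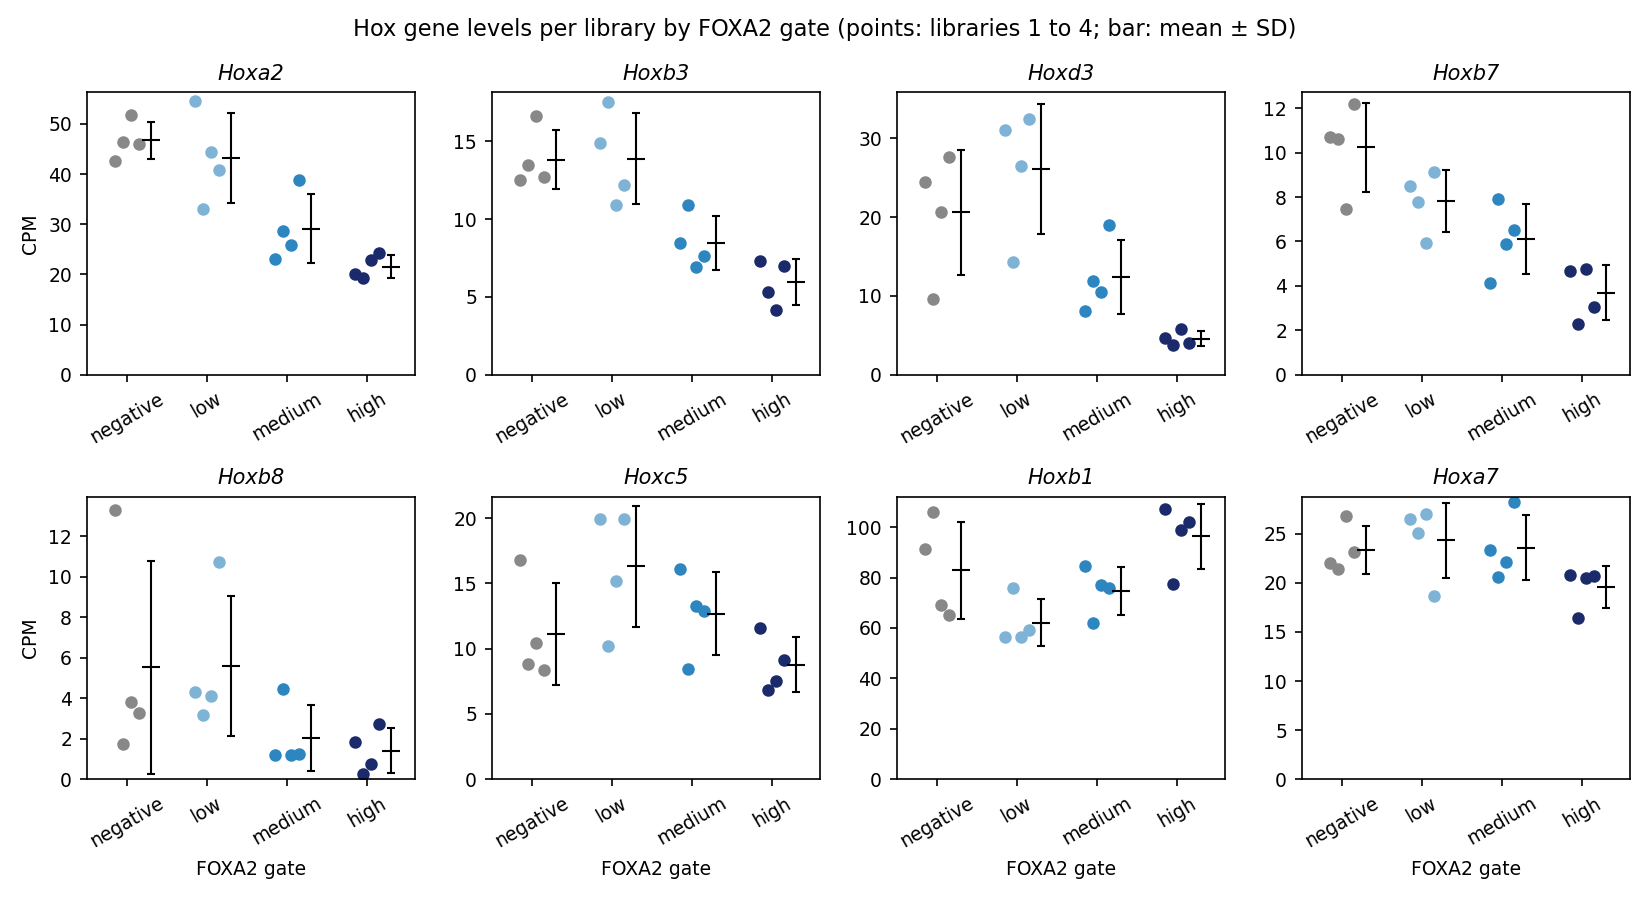
CPM of 8 Hox genes in each library (points), with gate means and SD beside them, for FOXA2-negative, low, medium and high gates from left to right. Hoxa2, Hoxb3, Hoxd3, Hoxb7, Hoxb8, Hoxc5 and Hoxa7 have their lowest mean in the high gate, while Hoxb1 is lowest in low.

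High against low, Hoxa2, Hoxb3, Hoxb7, Hoxd3 and Hoxc5 were lower and Hoxb1 was higher. Thus 5 of the 15 members were lower (33.3%) and 1 higher, where 3.08% of all tested genes were lower and 3.79% higher, and 9 members had an unadjusted p under 0.05. Both contrasts share the high libraries. The levels of 5 members were lower without overlap, where 5.95% of all genes were, and those of 1 were higher without overlap, where 6.92% were. The median log2 fold change was -0.60 over the members, 14 of which were negative, and -0.01 over all tested genes. The lower members numbered 3 without low 4, high 2 or high 4, and 3 on counts thinned to the smallest library.

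Hoxb1, the paralogue 1 gene that marks the fourth hindbrain segment, had 107, 77.6, 98.7 and 102 CPM in the high libraries and 56.6, 75.8, 56.5 and 59.2 in the low ones. The medium libraries held 84.6, 61.8, 76.9 and 75.8 CPM and the negative ones 91.5, 106, 69.0 and 65.0. High lay above low with a narrow gap, set by high 2 and low 2, and overlapped the negative gate widely. The log2 fold change was 0.64 high against low (SE 0.15, adjusted p = 0.00503) and 0.22 high against negative (SE 0.15, adjusted p = 0.34). Low against negative it was -0.42 (SE 0.15, adjusted p = 0.124). The high against low call was kept under each of the 25 alternatives run.

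Hoxc5, a gene of the cervical and upper thoracic levels, had 11.6, 6.83, 7.55 and 9.13 CPM in the high libraries and 19.9, 10.2, 15.2 and 19.9 in the low ones, against 16.8, 8.85, 10.4 and 8.40 in the negative gate and 16.1, 8.41, 13.3 and 12.9 in the medium gate. The high and low libraries overlapped, since high 1 exceeded low 2, although each high library was below the low library of the same number. The log2 fold change was -0.89 high against low (SE 0.26, adjusted p = 0.0293). The call was lost in 9 of 25 alternatives, among them leaving out low 1 (adjusted p = 0.0931), low 3 (0.0507), low 4 (0.102), high 2 (0.106), high 3 (0.0961) or high 4 (0.0590).

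Hoxb8, also a trunk gene, had 1.83, 0.253, 0.771 and 2.74 CPM in the high libraries, the second of them a single read, and 13.3, 1.74, 3.82 and 3.28 in the negative ones. The low libraries held 4.31, 3.18, 4.09 and 10.7 CPM and the medium ones 1.18, 4.45, 1.21 and 1.27. High lay below low without overlap and overlapped negative. The log2 fold change was -2.02 high against negative (SE 0.71, adjusted p = 0.0597) and -2.04 high against low (SE 0.71, adjusted p = 0.101), neither past the threshold, with negative 1 and low 4 far above their gates.

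**Figure D3:**
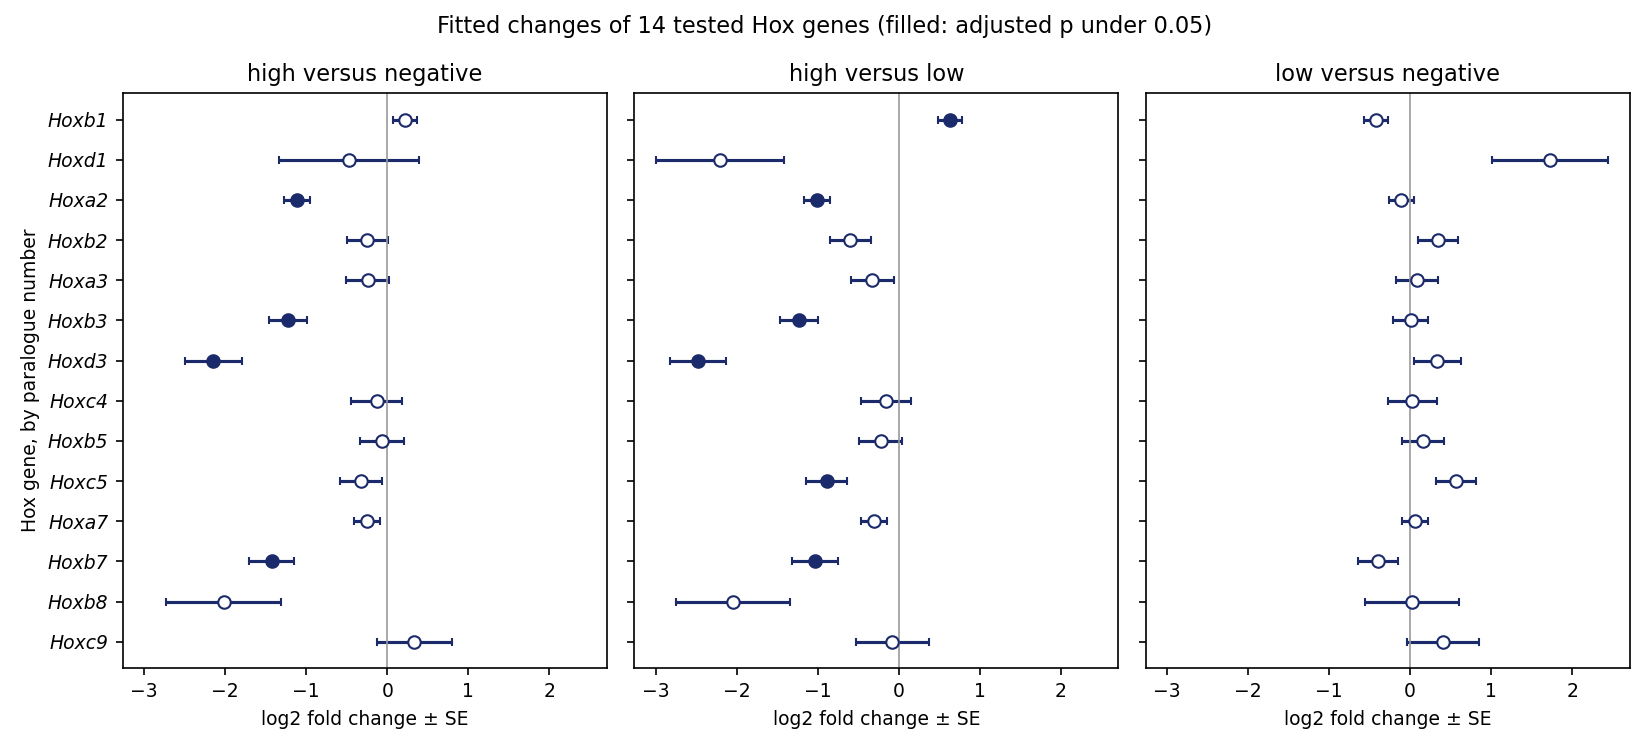
Fitted log2 fold changes with standard errors for 14 of the 15 tested Hox genes, ordered by paralogue number, for high over negative, high over low and low over negative; filled points have an adjusted p under 0.05. There are 4 filled points in high over negative, 6 in high over low and none (0) in low over negative.

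Medium against negative, which spans the low gate, 2 members were lower, Hoxa2 and Hoxb3, and 0 higher, where 4.22% of all tested genes were lower and 4.24% higher, and 5 members had an unadjusted p under 0.05. Those 2 were also the members without overlap (6.75% of all genes were lower without overlap). The steps between neighbouring gates gave 0 member calls by edgeR. Low against negative gave 0 by DESeq2 as well, where edgeR called 2.29% of all genes lower and 1.47% higher. There, 3 members had an unadjusted p under 0.05. The median log2 fold change of the members in that step was 0.09, with 3 of 15 negative. Medium against low had 0 at the adjusted threshold, where 0.223% of all genes were lower and 0.490% higher, and 4 at an unadjusted p under 0.05. High against medium had 0 at the adjusted threshold, where 0.547% were lower and 0.367% higher, and 5 at an unadjusted p under 0.05. DESeq2 called 1 member lower in each of the steps from low to medium and from medium to high, Hoxd3 (adjusted p = 0.0276 medium against low and 0.00275 high against medium). All shares over all genes are edgeR's. None was taken for DESeq2, here or elsewhere, so its calls have no such comparison. Hoxd3 was also the only member without overlap between high and medium, where 2.44% of all genes were lower without overlap.

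A linear trend over the gates, taken as equally spaced, fell for 5 of 15 members and rose for 0, where 9.06% of all tested genes fell and 9.12% rose. The fitted log2 slope per gate step was -0.75 for Hoxd3 (adjusted p = 4.73e-05) and -0.46 for Hoxb7 (0.000232). It was -0.44 for Hoxb3 (5.06e-05) and -0.39 for Hoxa2 (1.52e-06). A slope averages over the gates and does not show a fall at each step. Low against negative, the log2 fold changes were 0.33 (Hoxd3), 0.006 (Hoxb3), 0.02 (Hoxb8), -0.11 (Hoxa2) and -0.39 (Hoxb7), none called. The trend of Hoxb8 was -0.75 (SE 0.22, adjusted p = 0.0243), a call lost without negative 1 (0.0776), high 1 (0.0506), high 2 (0.0670) or high 3 (0.0812). The smallest adjusted p among the other 10 members was that of Hoxb1, at 0.171.

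By paralogue number, called and uncalled members stood side by side, and the difference between paralogues was not tested. Paralogue 2 (Hoxa2 and Hoxb2) summed to 46.1 ± 8.35 CPM in the high gate and 76.0 ± 4.56 in the negative gate (SD, n = 4 each), and paralogue 3 (Hoxa3, Hoxb3 and Hoxd3) to 16.4 ± 0.932 in high and 41.4 ± 8.60 in negative. In both of these the high libraries lay wholly below the negative ones. Hoxb2 averaged 24.5 ± 6.82 CPM in high and 29.3 ± 4.18 in negative, and Hoxa3 5.91 ± 1.40 in high and 6.99 ± 1.91 in negative, neither called in any comparison. Paralogue 7 (Hoxa7 and Hoxb7) summed to 23.3 ± 3.15 CPM in high and 33.6 ± 1.51 in negative, also without overlap. Each of these sums includes a member called on its own (Hoxa2, Hoxb3, Hoxd3 or Hoxb7), and no share over all genes was taken for sums.

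Hoxa7 had 20.8, 16.4, 20.5 and 20.7 CPM in the high libraries and 22.0, 21.4, 26.8 and 23.1 in the negative ones, a gap without overlap but small, and its fitted log2 fold change was -0.25 (SE 0.16, adjusted p = 0.338). Of paralogues 4 and 5, none was called high against negative. Hoxc4 averaged 13.3 ± 5.50 CPM in high and 14.8 ± 4.03 in negative, and in every gate was highest in library 1 and lowest in library 2. Hoxb5 averaged 8.73 ± 3.42 in high and 8.92 ± 2.59 in negative. Hoxc9, the one tested member numbered 9, averaged 3.59 ± 2.51 CPM in high and 2.74 ± 1.16 in negative. Hoxd1 averaged 0.966 ± 1.04 CPM in negative, 3.54 ± 3.00 in low, 2.20 ± 0.542 in medium and 0.657 ± 1.01 in high, with no call (high against low log2 fold change -2.20, adjusted p = 0.108), and 1 high library held no Hoxd1 read.

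By cluster, the Hoxd sum was 5.22 ± 1.91 CPM in the high gate and 21.6 ± 8.63 in the negative gate, without overlap, and rests on Hoxd3 almost alone. The Hoxb sum was 141 ± 21.6 CPM in high and 151 ± 19.5 in negative, and the Hoxc sum 25.7 ± 7.92 in high and 28.7 ± 7.09 in negative. In both the Hoxb and Hoxc clusters the libraries of these gates overlapped.

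Within a library, dividing a Hoxb gene by Hoxb1 removes the library's depth and scaling. The Hoxb3 to Hoxb1 ratio of counts was 0.0422 to 0.0689 in the high libraries and 0.128 to 0.240 in the negative ones, and the Hoxb7 to Hoxb1 ratio 0.0293 to 0.0484 in high and 0.10 to 0.187 in negative. Neither ratio overlapped between the gates. The CPM of Hoxb3 and Hoxb7 did not overlap there either, so these ratios are no separate support. No share over all genes was taken for ratios. The Hoxb2 to Hoxb1 ratio, at 0.215 to 0.338 in high and 0.272 to 0.542 in negative, did overlap, as did Hoxb5 to Hoxb1 at 0.0652 to 0.135 in high and 0.0574 to 0.140 in negative. A ratio shows unequal change between the pair and does not say which of the pair changed.

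**Figure D4:**
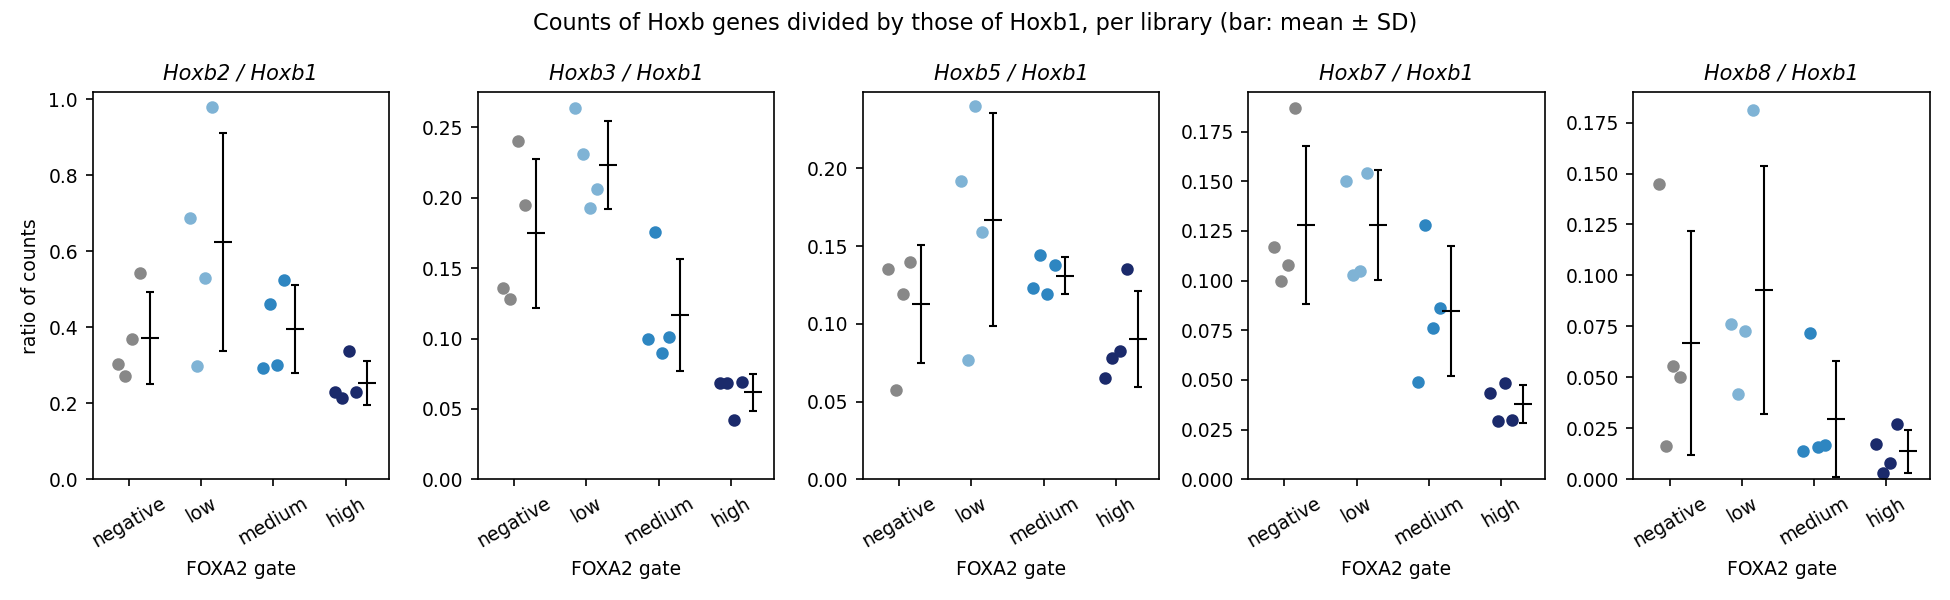
Counts of Hoxb2, Hoxb3, Hoxb5, Hoxb7 and Hoxb8 divided by Hoxb1, in each library, with gate means and SD. The high libraries lie below all negative ones for Hoxb3 and Hoxb7, and overlap them for Hoxb2 and Hoxb5.

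Within the spans of the 4 clusters lay 24 further annotated rows, of which 7 passed the filter and 11 were at 0, including all 6 microRNA rows. High against negative, 1 of the 7 was lower, Hoxaas2, a long noncoding RNA transcribed against the Hoxa genes, and 0 were higher. For these rows and the gene lists that follow, the shares over all tested genes are 8.42% higher and 8.55% lower in this contrast. Hoxaas2 averaged 3.56 ± 1.61 CPM in high and 7.87 ± 3.61 in negative, with overlapping libraries (log2 fold change -1.15, SE 0.38, adjusted p = 0.0329). That call was lost without negative 2 (0.180), negative 3 (0.0503), high 1 (0.103) or high 2 (0.110). The strand setting of the counting is not given in the sources used here, so reads of an antisense RNA and of the Hox gene opposite cannot be told apart.

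A list of 20 Hox noncoding RNAs, which adds transcripts beside the clusters, had 5 tested members, 1 higher and 1 lower high against negative. The higher one was Halr1, a long noncoding RNA next to the Hoxa cluster that retinoic acid switches on in mouse embryonic stem cells. Halr1 had 81.2, 72.1, 91.7 and 69.5 CPM in the negative libraries, 45.1, 46.8, 50.3 and 45.7 in the low ones, 105, 75.7, 91.6 and 76.3 in the medium ones and 122, 96.6, 114 and 105 in the high ones. Low lay below all the other gates, and high above negative and low. The log2 fold change was 0.48 high against negative (SE 0.12, adjusted p = 0.006), 1.22 high against low (SE 0.13, adjusted p = 4.44e-08) and -0.74 low against negative (SE 0.12, adjusted p = 0.000279). The other tested members were not called high against negative. Hotairm1 of the Hoxa cluster stood at 49.3 ± 12.1 CPM in high and 33.9 ± 6.29 in negative (adjusted p = 0.0728), and Hoxaas3 at 1.17 ± 0.868 in high and 1.12 ± 0.521 in negative (0.988).

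Haglr, a noncoding RNA of the Hoxd cluster, had its highest mean in the medium gate and its lowest in high. It had 3.16, 1.01, 2.16 and 4.57 CPM in the high libraries and 9.64, 3.79, 7.95 and 13.7 in the medium ones. High 4 exceeded medium 2, so the gates overlapped. High against medium it was lower (log2 fold change -1.72, SE 0.41, adjusted p = 0.0396), where 0.547% of all tested genes were, and DESeq2 called it too. The edgeR call was lost in 8 of 25 alternatives: without negative 3 (just above 0.05), low 3 (0.0520), medium 1 (0.0998), medium 3 (0.0840), medium 4 (0.219), high 1 (0.109), high 2 (0.160) or high 3 (0.146). High against negative, Haglr averaged 2.72 ± 1.51 CPM in high and 4.77 ± 1.88 in negative (adjusted p = 0.175).

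**Figure D5:**
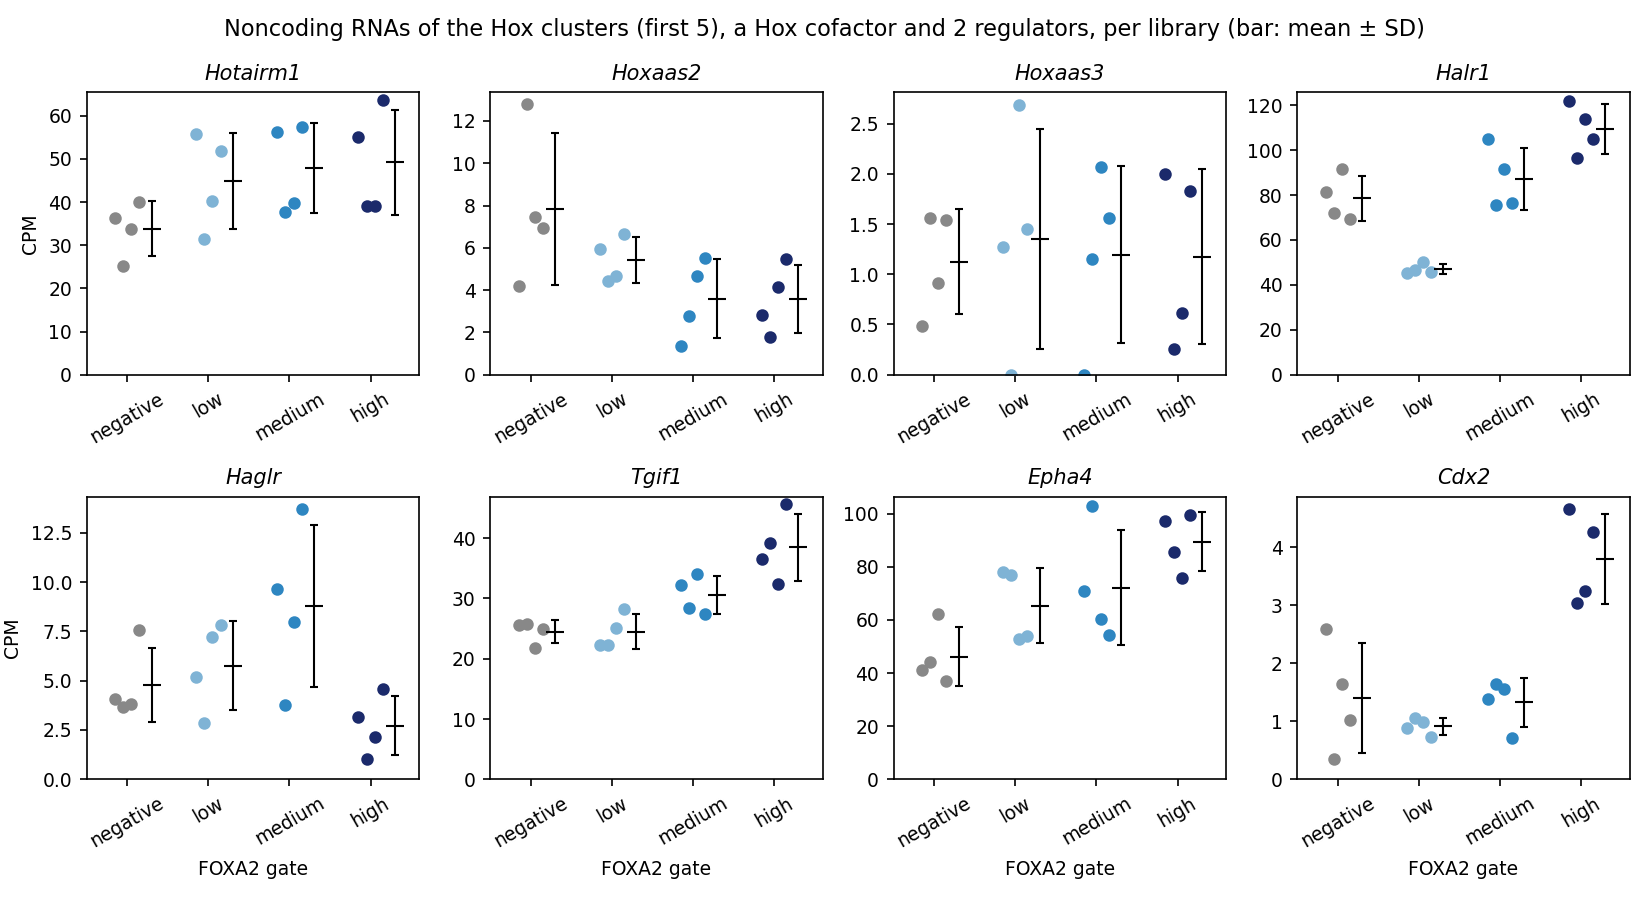
CPM per library, with gate means and SD, of the 5 tested genes of the Hox noncoding RNA list, the TALE gene Tgif1, the hindbrain gene Epha4 and the caudal gene Cdx2. Halr1 is lowest in the low gate at 45.1 to 50.3 CPM, and Tgif1, Epha4 and Cdx2 have their highest mean in the high gate.

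HOX proteins bind DNA with TALE homeodomain partners. Of 10 genes of the TALE family, called cofactors here for short, all were tested. High against negative, 2 were higher and 0 lower, with a median log2 fold change of -0.23. Tgif1, a TALE repressor listed by family and not as a known HOX partner, averaged 38.5 ± 5.56 CPM in high and 24.5 ± 1.90 in negative (log2 fold change 0.64, SE 0.14, adjusted p = 0.00192). Its libraries did not overlap between these gates.

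Of 12 Cdx and caudal progenitor genes, 6 were tested, of which 2 were higher and 2 lower in high. Cdx2, an activator of trunk Hox genes, averaged 3.80 ± 0.785 CPM in high and 1.40 ± 0.953 in negative (log2 fold change 1.44, SE 0.48, adjusted p = 0.0363), a call lost without negative 2 (0.126), negative 3 (0.0560), negative 4 (0.109), high 1 (0.110), high 3 (0.0522) or high 4 (0.0736). The gene T, or brachyury, averaged 4.25 ± 2.73 CPM in high and 0.478 ± 0.187 in negative (adjusted p = 0.000143). Wnt3a averaged 0.140 ± 0.164 CPM in high and 2.27 ± 1.84 in negative (adjusted p = 0.00222), and Fgf17 0.726 ± 0.673 in high and 6.32 ± 3.00 in negative (adjusted p = 0.00153). Both encode secreted signals.

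Of 17 genes of retinoic acid reception and turnover, 15 were tested, with 1 higher and 3 lower in high and a median log2 fold change of -0.02. The retinoic acid binding protein genes Crabp1 and Crabp2 averaged 2750 ± 446 and 745 ± 92.6 CPM in high, against 5480 ± 1180 and 2260 ± 430 in negative (log2 fold changes -0.995 and -1.60, adjusted p = 7.24e-06 and 0.0012). The receptor gene Rxrg averaged 0.353 ± 0.342 CPM in high and 3.61 ± 1.54 in negative (adjusted p = 0.000213).

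Of 10 hindbrain segment regulators, 9 were tested, with 3 higher and 2 lower in high and a median log2 fold change of -0.09. Zfp703 averaged 40.2 ± 3.12 CPM in high and 21.6 ± 4.79 in negative (adjusted p = 9.03e-05). Nr2f1, an orphan nuclear receptor gene, averaged 9.66 ± 2.68 CPM in high and 33.6 ± 4.99 in negative (adjusted p = 7.69e-08). Another higher call was Epha4, a receptor gene of hindbrain segments, at 89.5 ± 11.0 CPM in high and 46.2 ± 11.1 in negative (adjusted p = 0.00148). Of 14 forebrain and midbrain markers 6 were tested, with 2 lower and 0 higher. Gbx2, which marks the anterior hindbrain side of the midbrain boundary, averaged 17.8 ± 2.62 CPM in high and 34.3 ± 1.22 in negative (adjusted p = 0.000113). Pax2 averaged 1.01 ± 0.774 CPM in high and 3.00 ± 0.505 in negative (adjusted p = 0.0219, lost without negative 4, high 2, high 3 or high 4, at 0.0687, 0.0726, 0.0791 and 0.0620).

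Polycomb and Trithorax complexes hold Hox clusters silent or active. Of 21 such genes, all tested, 3 were higher and 2 lower high against negative, with a median log2 fold change of 0.02. Ash2l, a Trithorax subunit, averaged 70.8 ± 7.20 CPM in high and 94.8 ± 4.20 in negative (log2 fold change -0.42, SE 0.11, adjusted p = 0.00821). The Polycomb gene Eed averaged 53.9 ± 1.82 CPM in high and 71.4 ± 4.33 in negative (adjusted p = 0.0201, lost without negative 4 at 0.0665 or high 1 at 0.0602). The demethylase gene Kdm6b averaged 71.0 ± 10.8 CPM in high and 39.2 ± 5.08 in negative (adjusted p = 0.0301), and lost the call without negative 1, 2 or 4 or high 1 or 3 (0.0811, 0.0713, 0.0705, 0.0831 and 0.0612). The Polycomb gene Cbx2 averaged 185 ± 15.8 CPM in high and 146 ± 17.3 in negative (adjusted p = 0.0334), and lost it without negative 1, 2 or 3 or high 1, 3 or 4 (0.0828 to 0.107 for the negative libraries and 0.0752 to 0.0936 for the high ones). The remaining higher call, Cbx7, had an adjusted p of 0.0496, which was above 0.05 in 16 of 25 alternatives and highest without high 2 (0.216).

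Of 18 genes beside the clusters, 14 were tested and 1 was lower in high, with a median log2 fold change of 0.02. It was Ttll6, beside the Hoxb cluster, at 3.07 ± 1.11 CPM in high and 7.38 ± 1.87 in negative (log2 fold change -1.23, SE 0.31, adjusted p = 0.00538).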

How the data were processed

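BRB-seq libraries of 16 sorted samples, 4 for each of 4 FOXA2 gates, were analysed. The authors deposited 1 table of raw counts, whole numbers that had not been normalized. Genome build GRCm38 and the tools STARsolo 2.7.9a, cutadapt 1.18 and DESeq2 1.42.0 come from the submitters' processing notes. Annotation, strand setting and handling of molecular identifiers: not given in the sources used here.

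Genes were kept by edgeR's filterByExpr (minimum count 10, minimum total 15), which left 13891, and were scaled by TMM. edgeR 4.0.16 (R 4.3.3, limma 3.58.1) fitted 1 quasi-likelihood model with a robust prior to all 16 libraries, tested 6 pairwise contrasts and a linear trend, and adjusted p by Benjamini-Hochberg over all tested genes of a contrast at 0.05. The steps were tested on simulated data. CPM are counts over the TMM-scaled library size, and SDs are over 4 libraries. Intervals of counts and the floor of 3 counts cover counting error only.

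Totals of 3268948 to 9961032 counts set the precision. The Hox members and the 14 gene lists were chosen with earlier results of these data known. Values in every library are given for members called in any test. Genes of the lists are named where called in high against negative, up to 4 a list by adjusted p. Some genes that these rules take are not reported here, though the counts include them. Names outside this rule were chosen after their values were seen: marker genes in the opening, Epha4, Cbx7, Meis2, other genes with a library far from its gate, and the noncoding RNAs not called high against negative, which complete their list. Gene positions and promoters are RefSeq's (GRCm38.p6). Exon sharing was read from GENCODE M21. Alternatives covered DESeq2, RLE scaling, no filter, thinning to the smallest total, a replicate block, only the compared gates, no robust prior and leaving out libraries.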

Additional observations from a re-analysis of the deposited data

Results flagged for a closer look

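In 120 groups of 4 libraries, covering 14 tested Hox genes, 9 cofactor genes and 7 noncoding RNAs in each gate, 10 had a library whose gap to the nearest other, as a share of the range, was above Dixon's critical value. Chance flags about 1 in 20 such groups. Of 56 groups of Hox genes, 5 were flagged. Hoxa7 was at 16.4 CPM in high 2 and 20.5 to 20.8 in the other high libraries. Hoxb1 was at 75.8 CPM in low 2 and 56.5 to 59.2 in the other low libraries. Hoxb8 was at 10.7 CPM in low 4, where the others held 3.18 to 4.31, and at 4.45 CPM in medium 2, where the others held 1.18 to 1.27. Hoxd1 was at 2.16 CPM in high 3 and 0 to 0.304 in the other high libraries.

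Among the cofactors, Pbx2 was at 13.9 CPM in medium 4 (20.7 to 21.1 elsewhere in the gate), and Pbx4 at 24.4 CPM in low 4 (32.3 to 33.7). Meis2 was at 33900 CPM in negative 1 and 387 to 519 in the other negative libraries. Of the noncoding RNAs, Gm30528 was at 1.04 CPM in negative 2 (6.04 to 6.73 in the others) and Haglr at 7.58 CPM in negative 4 (3.65 to 4.05).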

How the results depend on the processing

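No called value of a Hox gene, of a list gene high against negative or of a noncoding RNA of the clusters reversed its sign; uncalled values were not followed in this way. The calls of Hoxa2, Hoxb3, Hoxb7 and Hoxd3 high against negative were kept in all 25 alternatives, and the count of lower members ranged from 4 to 6. Members lower medium against negative numbered 2, and 1 after thinning or with only the compared gates (1 to 3 leaving out a library). Members higher low against negative numbered 0, and 1 without a filter, Hoxd1. Members lower medium against low numbered 0, but 1 by DESeq2, 3 without a filter and 0 to 2 leaving out a library. Members lower high against medium numbered 0, but 1 (Hoxd3) by DESeq2, without a filter, with only the compared gates or without a robust prior, and 0 to 1 leaving out a library. Members lower high against low numbered 5, 8 without a filter and 3 after thinning, and 3 to 6 leaving out a library. Falling trends numbered 4 to 6. Over the 8 lists of cofactors, regulators and neighbours, 12 genes were higher and 13 lower high against negative, 9 to 15 and 9 to 16 in the alternatives. The cause of these differences was not tested.

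The labels do not say what the library numbers mark. Of 24 same-numbered pairs 6 correlated above 0.1 (median r 0.03, and -0.01 over other pairs). Negative 4, low 4 and medium 4 were all among these (0.172, 0.181 and 0.216). The differently numbered pairs above 0.1 were low 1 with medium 2 (0.287), negative 3 with medium 2 (0.217) and negative 3 with low 1 (0.150). For want of a label, the fit without a block stayed the main one, and pairing by number is not excluded. With a replicate block, 1 member (Hoxd3) was lower medium against low and 1 (Hoxd3) high against medium, 6 members were lower high against low (Hoxd1 added, adjusted p = 0.0470), and Kdm6b high against negative was not called (0.0593). Depth limits the 14 members below the filter. Leaving out low 1, medium 2 and negative 3 together, chosen after seeing the data, cost the calls of Hoxb3 medium against negative (adjusted p = 0.0740) and Hoxc5 high against low (0.0628).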
